A study of Mus musculus and Homo sapiens with 14 samples.

Results

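The expression of 10 mouse genes tied to bone morphogenetic protein (BMP) signalling was described in 2 cell lines: the ligands Bmp4 and Bmp7, the signal transducer Smad9, the inhibitory Smad6 and Smad7, the inhibitors of DNA binding Id1, Id2, Id3 and Id4, and the matrix protein gene Mgp. They were taken by symbol from the 35288 gene identifiers of each mouse table, and all 10 were found. The list was chosen by its TPM values in these same libraries, since it was drawn up with earlier results known, so the values below describe the genes and test nothing about them. Of the 10, 6 reached the minimum for the fit in Oli-neu (Bmp7, Smad7, Id1, Id2, Id4 and Mgp) and 6 in MB1 (Bmp7, Id1, Id2, Id3, Id4 and Mgp). The others stayed under it and are given by their levels.

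The study grew 3 lines alone or beside another line and sequenced poly(A) RNA from 14 libraries, 10 of them from mouse cells. Oli-neu cells are oligodendrocyte precursors of the mouse, kept as a line. MB1 was established from Sonic hedgehog medulloblastomas of Atoh1-cre:SmoM2 mice at P12, in which Cre under Atoh1 control switches on an active form of Smoothened, and D341 cells come from a human medulloblastoma of Group 3. The 5 mouse groups, each of 2 biological replicates, were Oli-neu alone, Oli-neu with MB1, Oli-neu with D341, MB1 alone and MB1 with Oli-neu. Every group, the monocultures included, grew in medium with 20 ng/mL of EGF and 20 ng/mL of bFGF plus B-27 and N-2 supplements. In co-culture a 30 mm insert, whose membrane had 0.4 µm pores, held the partner lines apart. The labels name no insert for the monocultures. In comparisons with monoculture the partner line and the insert therefore cannot be told apart. The replicates of a group come from the same line, so they carry no spread between animals or tumours. The labels number the replicates of every group 1 and 2 and do not say what the number stands for.

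BMP ligands bind a complex of type I and type II serine/threonine kinase receptors, which phosphorylate SMAD1, SMAD5 and SMAD9. These join SMAD4 in the nucleus and raise the transcription of the Id genes and of the inhibitory SMADs, which close a feedback loop. ID proteins bind E proteins without binding DNA and so hold back basic helix-loop-helix factors. In oligodendrocyte precursors BMP signalling is known to block differentiation, with ID2 and ID4 among its effectors, and in granule neuron precursors of the cerebellum it opposes the proliferation driven by Sonic hedgehog. MGP, matrix Gla protein, is a secreted vitamin K-dependent protein that binds BMPs and inhibits calcification.

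Expression is given as TPM, a share of all transcripts that is scaled by transcript length, so that levels of different genes can be set side by side. The tables of the 2 lines were normalised separately, and levels in Oli-neu and MB1 are set side by side without a test. These are bulk libraries, in which fewer cells with a transcript and less of it per cell cannot be told apart. Between 11596 and 12338 genes reached 1 TPM in a mouse library, and the depth of the libraries is unknown. Oli-neu alone expressed the lineage factor Sox10 at 171 and 197 TPM and MB1 alone expressed the granule lineage factor Zic1 at 74.0 ± 14.6 TPM (SD, n = 2). In MB1 the granule precursor factor Atoh1 was at 0 to 0.0143 TPM and the hedgehog effector Gli1 at 0.0822 to 0.178 TPM. Of the 10 genes of the granule lineage and hedgehog list, Zic2 (22.6 and 28.2 TPM), Pax6 (22.7 and 25.4 TPM) and the hedgehog target Ptch1 (18.4 and 14.2 TPM) were, like Zic1, higher in MB1 alone than in Oli-neu alone, where Ptch1 was at 4.36 and 5.93 TPM. Barhl1 was listed at 0 in all 4 MB1 libraries, Gli2 and Eomes were under 1 TPM, and Neurod1 was at 0.781 to 1.32 TPM. In all 3 Oli-neu groups the library numbered 1 and the library numbered 2 lay at opposite ends of the first principal component, which took 53.6% of the variance. In MB1 the first component held 49.8% and set the second monoculture library, at 46.3, apart from the other libraries, at -25.7 to -2.54. Differences of the Oli-neu genes are therefore also given within each number, and those of the MB1 genes without single libraries.

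The genes split into those that both lines expressed and those that 1 line expressed. Mgp belonged to Oli-neu, Id3 and Bmp7 were mainly found in MB1, Id1 and Id2 were expressed at comparable levels in both lines, Id4 was under 11 TPM in all libraries, and Bmp4, Smad6, Smad7 and Smad9 stayed under 3 TPM throughout. The plot of the 10 genes by library shows these levels.

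**Figure D1:**
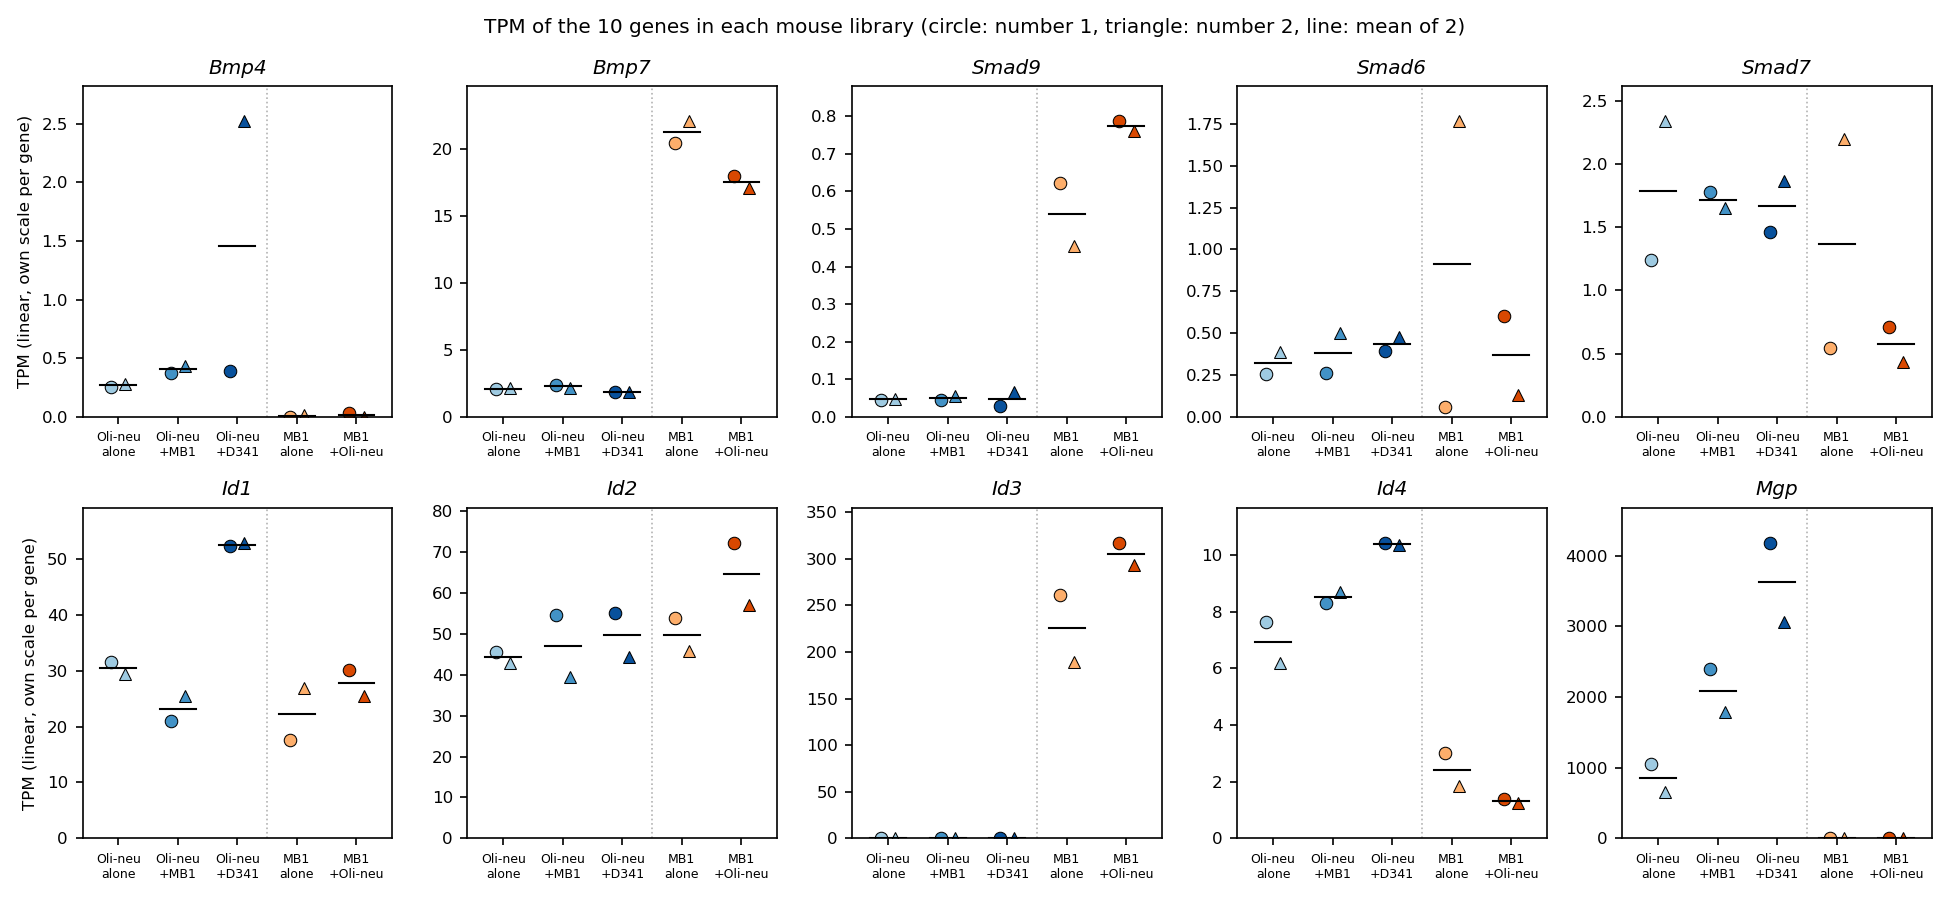
Each panel shows 1 gene, with TPM on a linear axis of its own that starts at 0 and the 5 mouse culture groups along the horizontal axis. Circles and triangles are the libraries numbered 1 and 2 and each line is their mean. Mgp reached 3064 and 4182 TPM in Oli-neu with D341 and stayed at 2.66 TPM or less in MB1, whereas Id3 was at 189 to 317 TPM in MB1 and at 0.126 TPM or less in Oli-neu.

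Among the ligands, Bmp7 (chromosome 2, 172868012 to 172940321, minus strand, GRCm38) was the better expressed. It was at 20.5 and 22.1 TPM in MB1 alone and at 18.02 and 17.1 TPM in MB1 with Oli-neu. In Oli-neu it was at 2.08 and 2.13 TPM alone, 2.38 and 2.17 TPM with MB1, and 1.83 TPM in both libraries with D341. The mean in MB1 alone was thus 10.1 times that in Oli-neu alone. Bmp4 (chromosome 14, 46383520 to 46390669, minus strand) was at 0.256 and 0.283 TPM in Oli-neu alone and at 0.377 and 0.434 TPM with MB1. With D341 it was at 0.389 and 2.52 TPM, so the mean of that group, 1.45 ± 1.51 TPM (SD, n = 2), rests on the second library. In MB1 Bmp4 was listed at 0 in 1 library of each group and at 0.0147 and 0.0309 TPM in the others. A stretch of 89 bases is shared with Gm15217, which was listed at 0 in all 10 libraries. None of the other 12 ligand genes on the list fixed for this pathway reached the minimum for the fit in either line, and Bmp2, for instance, was at 0.347 ± 0.0922 TPM (SD, n = 2) in Oli-neu alone.

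The SMAD members were weakly expressed. Smad9 (chromosome 3, 54755582 to 54801257, plus strand), a receptor-activated SMAD, was at 0.455 and 0.623 TPM in MB1 alone and at 0.761 and 0.786 TPM in MB1 with Oli-neu, and the libraries of these groups did not overlap. In the 6 Oli-neu libraries it lay between 0.0277 and 0.0668 TPM. Its transcripts share stretches of at least 95% identity with several unrelated genes, so its low values are uncertain. Smad6 (chromosome 9, 63953076 to 64022059, minus strand), an inhibitory SMAD, was at 0.256 and 0.390 TPM in Oli-neu alone, at 0.261 and 0.50 TPM with MB1, and at 0.393 and 0.474 TPM with D341. In MB1 alone it was at 0.0609 and 1.76 TPM, and in MB1 with Oli-neu at 0.604 and 0.132 TPM, so that the second monoculture library held the highest value of all 10.

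Smad7 (chromosome 18, 75367529 to 75395935, plus strand), the inhibitory SMAD shared with TGF-beta signalling, was at 1.24 and 2.34 TPM in Oli-neu alone, at 1.78 and 1.66 TPM with MB1, and at 1.46 and 1.87 TPM with D341. The 3 groups overlapped. In MB1 it was at 0.541 and 2.20 TPM alone and at 0.710 and 0.435 TPM with Oli-neu. The high value again came from the second monoculture library, the library that stood apart on the first component. The part of that library's other features in these values was not tested.

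Id1 (chromosome 2, 152736251 to 152737410, plus strand) was at 31.7 and 29.4 TPM in Oli-neu alone, 20.95 and 25.5 TPM with MB1, and 52.3 and 52.9 TPM with D341. The 3 Oli-neu groups did not overlap: the libraries with MB1 were the lowest and those with D341 the highest. The share of all tested genes with the 3 groups apart was not computed, here or for Id4 and Mgp below. In MB1 alone it was at 17.6 and 26.8 TPM and in MB1 with Oli-neu at 30.2 and 25.5 TPM, and there the groups overlapped. Neither co-culture group differed from monoculture past the threshold in limma (adjusted p = 0.791 with MB1 and 0.320 with D341).

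Id2 (chromosome 12, 25093799 to 25097140, minus strand) was at similar levels in both lines. It was at 45.7 and 42.9 TPM in Oli-neu alone, at 54.7 and 39.6 TPM with MB1, and at 55.1 and 44.4 TPM with D341, so the Oli-neu groups overlapped. In MB1 it was at 54.0 and 45.8 TPM alone and at 72.3 and 57.1 TPM with Oli-neu, where both co-culture libraries lay above both monoculture libraries.

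Id3 (chromosome 4, 136143497 to 136145755, plus strand) separated the lines most among the Id genes. In MB1 alone it was at 262 and 189 TPM, and in MB1 with Oli-neu at 317 and 293 TPM, without overlap. It ranked 717 or higher by TPM among all genes in the 4 MB1 libraries. In Oli-neu alone it was at 0 and 0.112 TPM, with MB1 at 0 and 0.126 TPM, and with D341 at 0.0570 and 0.0769 TPM. The Oli-neu libraries with MB1 thus held Id3 at 0.126 TPM or less, and those of MB1 with Oli-neu at 293 TPM or more. Passage of transcripts between the lines was not tested.

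Id4 (chromosome 13, 48261228 to 48266026, plus strand) was at 7.64 and 6.20 TPM in Oli-neu alone, 8.31 and 8.70 TPM with MB1, and 10.4 TPM in both libraries with D341. The groups did not overlap, and both libraries with D341 lay above all others. In MB1 it was at 3.00 and 1.84 TPM alone and at 1.39 and 1.23 TPM with Oli-neu, with both co-culture libraries below both monoculture libraries. The direction in MB1 was therefore opposite to that in Oli-neu, a difference between the lines that was not tested. Id4 shares an identical stretch of 110 bases with Gm49291, and reads from it cannot be told apart.

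The makeup of the Id family differed between the lines. Summed over the 4 genes, Id transcripts amounted to 85.0 and 78.6 TPM in Oli-neu alone, 83.9 and 73.9 TPM with MB1, and 118 and 108 TPM with D341. Id2 held 53.8% and 54.6% of this sum in Oli-neu alone, and Id1 held 37.2% and 37.4%. With D341 the share of Id1 was 44.4% and 49.1%, and with MB1 it was 25.0% and 34.5%. In MB1 the sum was 336 and 264 TPM alone and 421 and 377 TPM with Oli-neu, of which Id3 held 71.8% to 77.8% in each library.

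**Figure D2:**
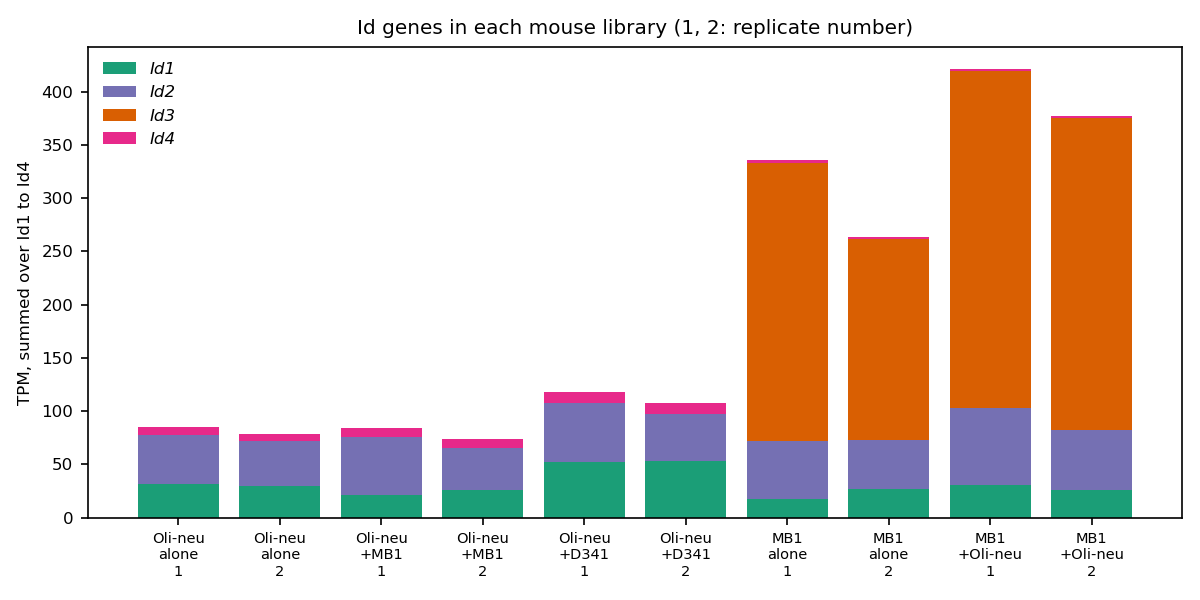
Stacked bars give the TPM of Id1, Id2, Id3 and Id4 in each of the 10 mouse libraries on a linear axis from 0. The sum was 73.9 to 118 TPM in Oli-neu, nearly all from Id1, Id2 and Id4, and 264 to 421 TPM in MB1, where Id3 was the main part.

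Mgp (chromosome 6, 136872435 to 136875823, minus strand) was the most abundant of the 10 genes in Oli-neu. It was at 1057 and 653 TPM in Oli-neu alone, at 2395 and 1787 TPM with MB1, and at 4182 and 3064 TPM with D341. The groups did not overlap, and in each of them the library numbered 1 was the higher. By TPM it ranked 159 and 241 among all genes in Oli-neu alone, 77 and 96 with MB1, and 35 and 51 with D341. In the last group it held 0.418% and 0.306% of all TPM. In MB1 it was at 1.37 and 0.254 TPM alone and at 2.66 and 0.718 TPM with Oli-neu, and these groups overlapped.

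Mgp is also a marker of vascular mural cells and fibroblasts, so the other genes of that cell type were read beside it. Of the 8 genes on that list, Col3a1 gave nearly all of the summed level, with 92.7 ± 2.55 TPM (SD, n = 2) in Oli-neu alone, 76.6 ± 8.50 TPM with MB1 and 64.5 ± 9.67 TPM with D341. The list summed to 101 and 95.9 TPM in Oli-neu alone, 87.3 and 74.6 TPM with MB1 and 61.3 and 74.3 TPM with D341, an order opposite to that of Mgp, while Dcn, Pdgfrb, Acta2 and Rgs5 were near 0. Its part in the Mgp levels was not tested.

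The Oli-neu groups were then compared. Of the 12280 genes tested with limma, 0 passed an adjusted p of 0.05 in any of the 3 comparisons, so percent called was 0. At an unadjusted p under 0.05, 747 genes (6.08%) were found with MB1 against alone, 1684 (13.7%) with D341 against alone and 630 (5.13%) with D341 against MB1. The comparisons share libraries, the monoculture in the first 2 cases, and are not independent of each other. The median log2 fold change of all genes was -0.06 with MB1, -0.16 with D341 and -0.09 for D341 against MB1, so that a gene at 0 with D341 lay above the median gene.

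With MB1, both libraries lay above both monoculture libraries for 3 of the 6 tested members (Bmp7, Id4 and Mgp) and below them for 1 (Id1). Over all tested genes these shares were 10.1% above and 24% below. The log2 fold change of Mgp was 1.32 ± 0.32 (SE, n = 2 and 2), the 60th highest of all genes tested, and 1.18 and 1.45 within the libraries numbered 1 and 2. A log2 fold change of 1 or more was found for 0.733% of all tested genes. For Id1 it was -0.38 ± 0.13, with -0.57 and -0.20 within numbers. Id4 differed by 0.27 ± 0.12, with 0.11 and 0.43 within numbers, and Bmp7 by 0.08 ± 0.12. Id2, at 0.07 ± 0.20, and Smad7, at -0.01 ± 0.23, had differences of opposite sign in the 2 numbers. Adjusted p values of the 6 members in limma ranged from 0.715 to 1.00.

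With D341, the same split of 3 members above and 1 below was seen, against 7.12% and 44% of all tested genes. Here the members above were Id1, Id4 and Mgp, and the member below was Bmp7. Mgp differed by 2.11 ± 0.32 on the log2 scale (SE, n = 2 and 2), the 18th highest of all genes tested (0.847% of which had a log2 fold change of 1 or more), with 1.98 and 2.23 within numbers. Id1 differed by 0.77 ± 0.13, with 0.71 and 0.83 within numbers, and Id4 by 0.53 ± 0.12, with 0.40 and 0.66. For these 3 genes the difference was opposite in sign to the median of all genes. Bmp7, at -0.13 ± 0.12, was close to that median, and it was at -0.01 when columns were scaled by the median of gene ratios. Id2 was at 0.16 ± 0.20 and Smad7 at -0.04 ± 0.23, both with overlapping libraries. The adjusted p values in limma ranged from 0.320 to 0.955.

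Set directly against each other, Oli-neu cells with D341 had 3 members above those with MB1 (Id1, Id4 and Mgp) and 1 below (Bmp7), against 6.6% and 28.8% of all tested genes. The difference of Id1 was 1.15 ± 0.13 (log2, SE, n = 2 and 2), with 1.28 and 1.02 within numbers, where 0.733% of all tested genes reached a log2 fold change of 1. For Mgp it was 0.79 ± 0.32, with 0.80 and 0.78, and for Id4 it was 0.26 ± 0.12, with 0.30 and 0.23. Bmp7 differed by -0.21 ± 0.12. Smad7 and Id2 were at -0.03 ± 0.23 and 0.09 ± 0.20. No member passed the threshold, with adjusted p values from 0.349 to 0.991 in limma.

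**Figure D3:**
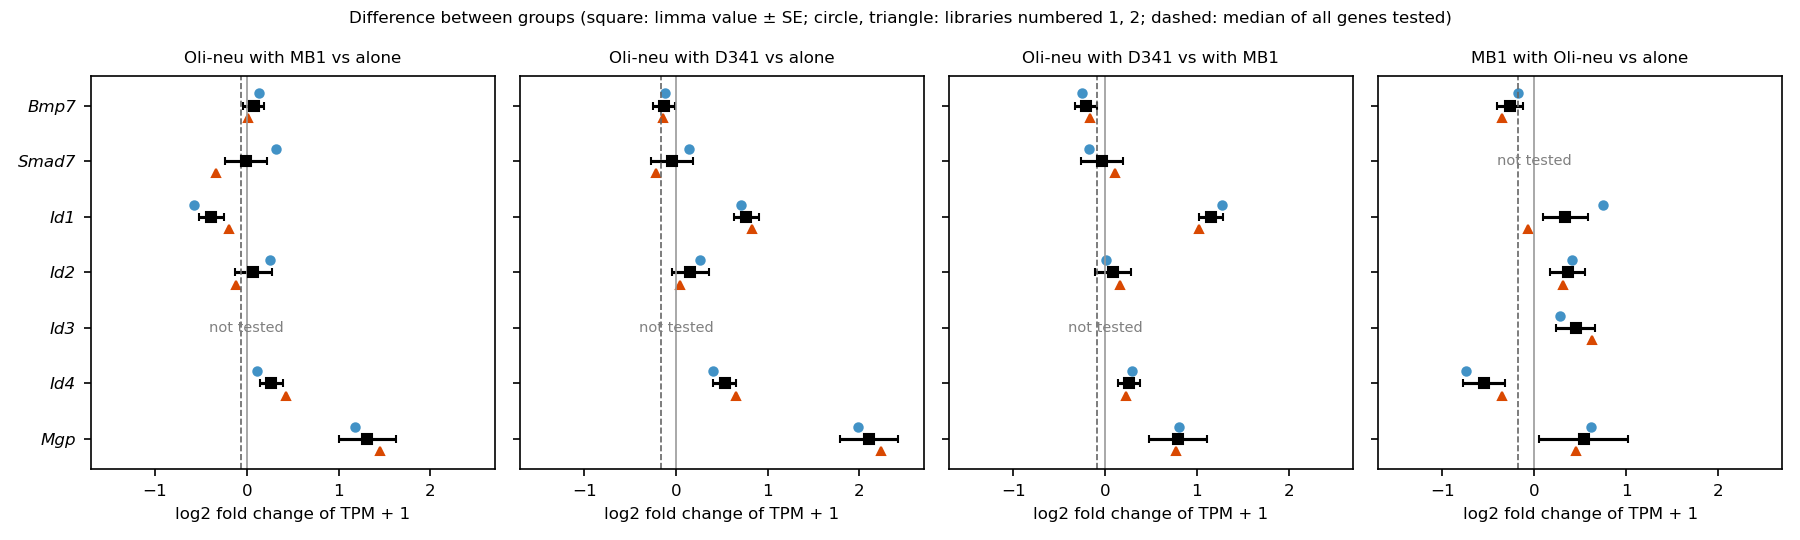
For each comparison, squares give the limma log2 fold change of TPM + 1 with its SE for the members tested, circles and triangles give the difference within libraries numbered 1 and 2, and the dashed line marks the median of all genes tested. Mgp lies at 1.32 with MB1 and 2.11 with D341, and Id1 lies on opposite sides of 0 with the 2 partners.

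In MB1, 12407 genes were tested between co-culture with Oli-neu and monoculture, and 0 passed an adjusted p of 0.05 in limma, so percent called was 0. At an unadjusted p under 0.05 there were 1944 genes (15.7%), and the median of all genes was -0.17 on the log2 scale. Of the 6 tested members, Id2 and Id3 had both co-culture libraries above both monoculture libraries and Bmp7 and Id4 had them below, against 10.9% and 41.5% of all tested genes. Id3 differed by 0.45 ± 0.21 (SE, n = 2 and 2) and Id2 by 0.36 ± 0.19. Id4 differed by -0.54 ± 0.23 and Bmp7 by -0.26 ± 0.15, which became -0.08 under median-ratio scaling. Id1, at 0.34 ± 0.25, and Mgp, at 0.54 ± 0.49 on TPM levels around 1, had overlapping libraries. No member reached a log2 fold change of 1, which 1.35% of all tested genes did. The adjusted p values of these members in limma ranged from 0.333 to 0.578.

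Single libraries carried much of the size of these MB1 values. Without the first monoculture library the difference of Id1 was 0.05, and without the second it was 0.63. For Id3 these values were 0.68 and 0.22, and for Id4 they were -0.30 and -0.79. Mgp was at 0.08 without the second monoculture library and at 1.08 without the second co-culture library. Only the libraries numbered 1 held Mgp at 1 TPM or more (1.37 and 2.66 TPM). Without either of them the gene fell under the minimum for the fit and has no value.

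Promoter windows for 6 of the 10 genes (Bmp4, Smad6, Smad9, Id2, Id3 and Id4) were taken from the RefSeq promoter table of GRCm38.p6. Windows of the other members are not reported here. In the 250 bases before each start, GGCGCC was searched as a GC-rich SMAD1/5 binding motif, which reads the same on both strands, together with CAGAC and its reverse complement GTCTG as a SMAD4-type motif. The 2 motifs can share no more than an end base, and a match describes the letters and not a bound site. GGCGCC was found in 3 of the 6 windows, those of Id2, Id4 and Smad9, and in 9.59% of 32851 promoters. CAGAC or GTCTG was found in Id3, at 167 and 68 bases before the start, and in 42.2% of all promoters. The Id2 window overlapped annotated exons of GENCODE M21 over 161 of its bases and the Id3 window over all 250, so these are not shown. The windows of Id4, whose levels did not overlap between the Oli-neu groups, and of Smad9, a member at the bottom of the range, hold the box outside any annotated exon and are printed 5′ to 3′ with GGCGCC in capitals. They are chr13:48260866-48261115 on the plus strand, with the box 148 bases before the start, and chr3:54755332-54755581 on the plus strand, with the box 51 bases before it.
Id4: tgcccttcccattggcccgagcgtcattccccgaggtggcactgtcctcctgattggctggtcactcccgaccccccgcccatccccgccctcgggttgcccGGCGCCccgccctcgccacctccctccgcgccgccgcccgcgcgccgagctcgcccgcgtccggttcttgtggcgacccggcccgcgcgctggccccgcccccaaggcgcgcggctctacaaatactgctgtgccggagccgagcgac
Smad9: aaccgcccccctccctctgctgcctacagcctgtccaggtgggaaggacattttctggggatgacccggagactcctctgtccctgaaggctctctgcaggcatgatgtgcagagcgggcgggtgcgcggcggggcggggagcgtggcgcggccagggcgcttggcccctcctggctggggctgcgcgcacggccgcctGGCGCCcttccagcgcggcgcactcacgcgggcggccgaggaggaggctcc
The GC content was 75.6% for Id4 and 73.2% for Smad9, with a median of 52.4% over all promoters. Both of these windows hold the box, and the 2 genes were at unlike levels. Id4 was at 6.92 ± 1.02 TPM (SD, n = 2) in Oli-neu alone and Smad9 at 0.0462 ± 0.00236 TPM. The relation of the box to the level of a gene was not tested.

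The other genes of the pathway give the setting in which the members were expressed. Of 56 such genes, 28 were tested in Oli-neu and 29 in MB1, and 0 passed the adjusted threshold in limma in any comparison. At an unadjusted p under 0.05 none of the 28 was found with MB1, where 1.43% of all tested genes were higher and 4.65% lower. With D341, 2 of 28 were lower and 0 higher, beside 12.1% and 1.61% of all genes. For D341 against MB1, 2 of 28 were lower and 0 higher, beside 4.34% and 0.79%. In MB1 with Oli-neu, 1 of 29 was higher and 3 were lower, beside 3.02% and 12.6%. With MB1, both libraries lay above both monoculture libraries for 5 of the 28 and below for 3, beside 10.1% and 24% of all tested genes. With D341 these counts were 2 and 15, beside 7.12% and 44%. For D341 against MB1 they were 3 and 12, beside 6.6% and 28.8%, and in MB1 with Oli-neu 5 and 12 of 29, beside 10.9% and 41.5%. Their median log2 fold change was -0.01, -0.12, -0.11 and -0.07 in the same order, beside -0.06, -0.16, -0.09 and -0.17 over all tested genes.

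Several receptor genes were more abundant in MB1. The type I receptor Bmpr1a was at 19.7 ± 2.59 TPM in MB1 alone and 7.14 ± 0.121 TPM in Oli-neu alone (SD, n = 2 each). Bmpr1b, the second BMP type I receptor, was at 8.82 and 7.77 TPM in MB1 alone and at 0 and 0.00786 TPM in Oli-neu alone. The co-receptor Rgma was at 51.4 ± 10.6 TPM in MB1 alone, 35.0 ± 3.30 TPM in MB1 with Oli-neu and 12.7 ± 2.92 TPM in Oli-neu alone. Acvr2b, a type II receptor, went the other way, with 10.3 and 16.3 TPM in Oli-neu alone and 3.30 and 6.83 TPM in MB1 alone. So did the type I receptors Acvrl1, at 3.96 and 5.55 TPM in Oli-neu alone and 0.0348 and 0.0694 TPM in MB1 alone, and Acvr1, at 7.04 TPM in both libraries of Oli-neu alone and 5.46 and 5.64 TPM in MB1 alone. Neo1, a receptor for RGM proteins, was at 11.8 ± 0.0533 and 14.1 ± 0.980 TPM.

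Smad9 was the least expressed of the receptor-activated SMADs of the BMP branch in both lines. Smad1 was at 11.0 ± 1.02 TPM in Oli-neu alone and 12.5 ± 0.0873 TPM in MB1 alone. Smad5 was at 5.16 ± 0.147 and 28.8 ± 2.59 TPM, and the common partner Smad4 at 19.6 ± 0.350 and 28.5 ± 0.0619 TPM. In Oli-neu with D341, Smad5 was at 3.65 and 3.70 TPM, below the 5.26 and 5.06 TPM of the monoculture, a log2 fold change of -0.40 ± 0.11 that did not pass in limma (adjusted p = 0.320). Among the regulators, the ubiquitin ligase gene Smurf1 was at 9.93 and 10.2 TPM in MB1 alone and at 12.9 and 16.5 TPM with Oli-neu (0.49 ± 0.18, adjusted p = 0.310 in limma).

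Several secreted BMP antagonists were found mainly in MB1. Nbl1 was at 37.9 ± 11.9 TPM in MB1 alone, 46.4 ± 3.00 TPM in MB1 with Oli-neu and 0.254 ± 0.0936 TPM in Oli-neu alone. Chrdl1, a chordin-like antagonist, was at 11.9 ± 1.89 TPM in MB1 alone and listed at 0 in both libraries of Oli-neu alone. Noggin, Nog, was at 1.01 ± 0.00258 TPM in MB1 alone and 0.282 ± 0.105 TPM in Oli-neu alone. Twsg1 was at similar levels in both, 14.8 ± 2.07 TPM in Oli-neu alone and 16.4 ± 0.906 TPM in MB1 alone. Fstl1 overlapped between the lines, with 15.9 and 27.96 TPM in Oli-neu alone and 21.9 and 30.3 TPM in MB1 alone. Fstl3 and Chrdl2 were low and higher in Oli-neu. Fstl3 was at 1.18 and 1.26 TPM in Oli-neu alone and 0.109 and 0.0879 TPM in MB1 alone. Chrdl2 was at 0.753 and 0.730 TPM in Oli-neu alone and 0.0253 and 0.0232 TPM in MB1 alone. Among the BMP-binding genes on the list, Mgp was thus the main one in Oli-neu and Nbl1 the main one in MB1.

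**Figure D4:**
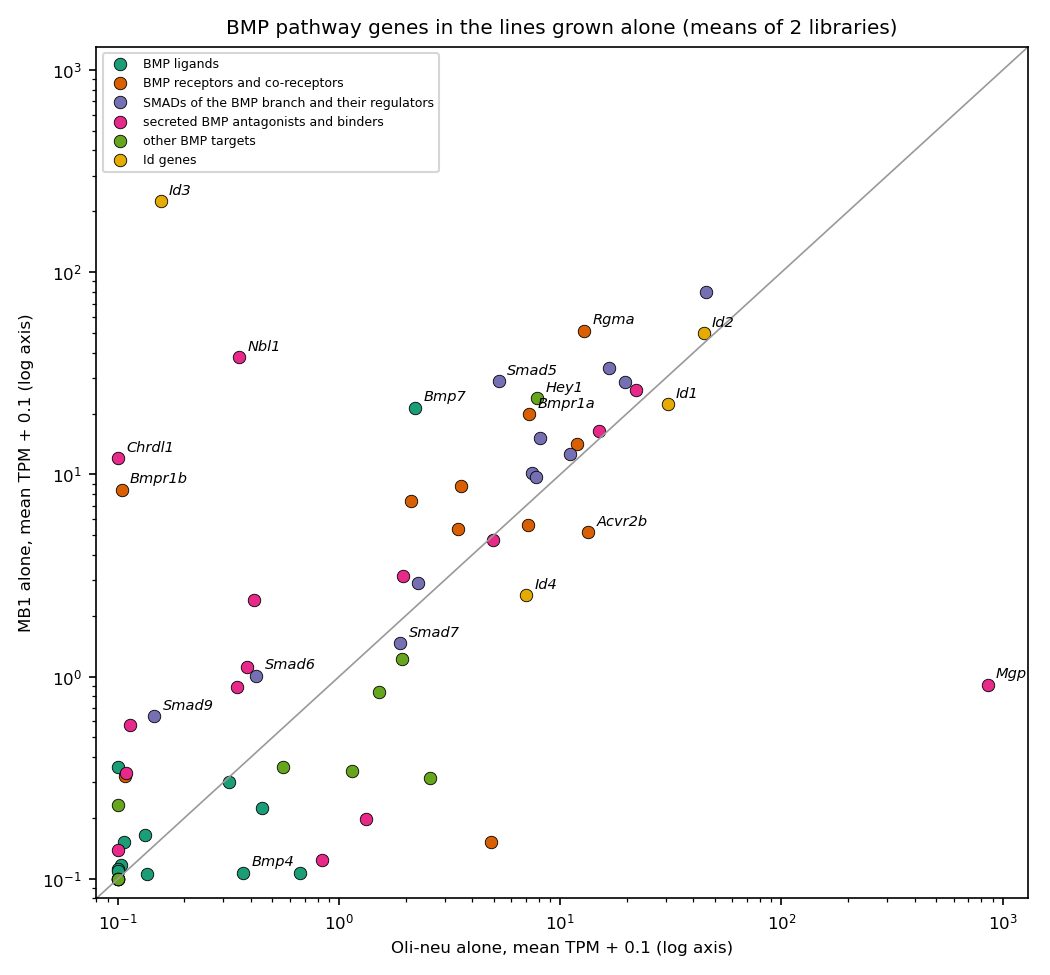
Each point is 1 gene of the BMP pathway lists or 1 member, at its mean TPM + 0.1 over 2 libraries in Oli-neu alone (horizontal) and MB1 alone (vertical), both on log axes. Mgp lies far to the right and low, Id3, Chrdl1, Nbl1 and Bmpr1b lie high on the left, and Id1 and Id2 lie near the diagonal.

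Other BMP targets were read beside the Id genes. Bambi, a decoy receptor, was at 1.51 and 1.31 TPM in Oli-neu alone, 1.63 and 1.62 TPM with MB1, and 1.87 and 2.05 TPM with D341, a log2 fold change with D341 of 0.30 ± 0.13 (adjusted p = 0.386 in limma). Hey1 was at 7.74 TPM in both libraries of Oli-neu alone and at 5.58 and 6.85 TPM with D341. Msx1 was at 1.81 and 1.85 TPM alone and at 2.15 and 2.07 TPM with D341. Runx2 was at 2.47 and 2.49 TPM alone and at 1.86 and 1.85 TPM with D341 (-0.29 ± 0.13, adjusted p = 0.399 in limma). Of the 5 tested targets on this list, both libraries with D341 thus lay above the monoculture for 2 (Bambi and Msx1) and below it for 2 (Hey1 and Runx2), beside 7.12% and 44% of all tested genes.

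ID proteins act on basic helix-loop-helix factors, whose genes were read as a further list of 12. None passed in limma. In Oli-neu the repressor gene Hes5 was at 18.2 and 17.5 TPM alone, 10.5 and 10.2 TPM with MB1, and 15.3 and 15.6 TPM with D341, with a log2 fold change with MB1 of -0.73 ± 0.09 (adjusted p = 0.488). Olig2, a determinant of the oligodendrocyte lineage, was at 64.7 and 76.0 TPM alone and 49.2 and 51.7 TPM with D341 (-0.47 ± 0.14, adjusted p = 0.321 in limma). In MB1, Olig2 was at 246 and 228 TPM alone and 155 and 151 TPM with Oli-neu (-0.63 ± 0.15), and Hes1 was at 76.7 and 98.0 TPM alone and 51.1 and 46.1 TPM with Oli-neu (-0.82 ± 0.19), each with an adjusted p of 0.282 in limma. The E protein gene Tcf4, a direct partner of ID proteins, was at 55.7 ± 2.20 TPM in Oli-neu alone and 141 ± 29.3 TPM in MB1 alone.

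The genes whose log2(TPM + 1) was most like that of Id1 over the 6 Oli-neu libraries, among 8480 genes, were Nudt22 (Pearson r = 0.993), Hcfc1r1 (0.973), Snorc (0.945), Apopt1 (0.941) and Serf2 (0.937). Those most like Mgp were Pfdn5 (0.993), Arl3 (0.979), Ppp1r15a (0.976), Efhd1 (0.972) and Mthfsl (0.970). Id4 was the 11th most like Mgp (0.955), while Id1 (0.499) and Id2 (0.553) followed it less. These values describe 6 libraries in 3 groups that share the culture medium and the replicate numbers. Ppp1r15a, for example, was at 37.2 and 34.0 TPM alone, 45.6 and 43.7 TPM with MB1 and 59.9 and 49.2 TPM with D341, and Nudt22 at 8.55 and 8.50, 7.19 and 8.11, and 10.3 and 10.4 TPM.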

How the data were processed

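The deposited values are TPM, computed by the authors with 1 table for each line, and the submitters' processing notes name Salmon 0.14.1, FastQC 0.11.8, MultiQC 1.7 and DESeq2 1.22.2 with the build GRCm38 for mouse. Per the labels, libraries were directional. Each column summed to 1000000. The files hold no counts, so no count test was run and precision is given by the 2 libraries of each group. Annotated pseudogenes took up 36.0% to 38.2% of each Oli-neu column and 25.2% to 26.8% of each MB1 column.

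The fit took every gene that reached 1 TPM in 2 or more columns. It was made on log2(TPM + 1) in limma 3.58.1 (R 4.3.3) with the trend option, the 6 Oli-neu libraries in 1 fit and the 4 MB1 libraries in another. Tests were two-sided, with Benjamini-Hochberg adjustment over all genes tested and a threshold of 0.05. Fold changes on this scale understate low genes. The code was tested on simulated data.

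The members and lists were chosen with earlier results of these data known. Named were all members, list genes whose mean reached 10 TPM in any group or which had the 2 smallest p values of their list, of which examples are given, and the 5 genes most like Id1 and like Mgp. Genes named outside this rule were Bmp2, Bmpr1b, Acvr1, Nog, Fstl3, Chrdl2 and the marker genes, chosen after their values were seen. Symbols and positions came from GENCODE M21. Transcripts were compared with blastn 2.17.0. Alternatives were other pseudocounts, filters, scalings and gene sets, limma without a trend, the replicate number as a covariate, the 4 libraries compared alone, and each library left out. The D341 table was not used here.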

Additional observations from a re-analysis of the deposited data

Results flagged for a closer look

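In Oli-neu cells, Id1 and Bmp7 lay on opposite sides of their monoculture values beside the 2 partner lines, in both libraries of each group. Id1 was lower with MB1 and higher with D341, with a difference between the partners of 1.15 on the log2 scale (limma, adjusted p = 0.349). Bmp7 was higher with MB1 and lower with D341, with a difference between the partners of -0.21 (limma, adjusted p = 0.839). With MB1 against alone, Bmp7 differed by only 0.08 ± 0.12 (SE, n = 2 and 2), with 0.14 and 0.02 within numbers. Its value with D341 against alone, -0.13, lay near the median of all genes, -0.16, and was -0.01 under median-ratio scaling, so its distance below the monoculture depends on the scaling. Neither difference passed the test, and both were picked out by the direction of all their libraries. The share of all tested genes that met this rule was not computed.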

How the results depend on the processing

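No member passed an adjusted p of 0.05 under any of 332 values from alternatives, of which 318 kept their direction. The other 14 changed sign, 11 of them for Smad7 and 3 for Id2, whose groups overlapped. For Smad7 with MB1 against alone, the value was 0.0093 with a pseudocount of 0.1 TPM, 0.0084 over protein-coding genes alone and 0.037 under median-ratio scaling. Leaving out each library in turn gave -0.30 to 0.28, the lowest without Oli-neu alone replicate 1 and the highest without its replicate 2. With D341 against alone, Smad7 was at 0.079 under median-ratio scaling and at -0.33 to 0.25 with each library left out, the extremes again without the monoculture libraries. For D341 against MB1 it was at 0.042 under median-ratio scaling and at -0.14 to 0.078 with each library left out. Id2 was at -0.16 to 0.30 with MB1 against alone and at -0.14 to 0.32 for D341 against MB1 with each library left out, the extremes without the libraries with MB1.

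The count of genes called over all genes was 0 in the analysis reported. With MB1 against alone it was 3 with a pseudocount of 0.1 TPM, 2 under median-ratio scaling and over protein-coding genes alone, and 1 with no filter and with no trend. With D341 against alone it was 3 with no filter and 1 over protein-coding genes alone, and 0 to 2 with each library left out. For D341 against MB1 it was 6 with no filter, 1 over protein-coding genes alone and with no trend, and 0 to 3 with each library left out. In MB1 it was 5 over protein-coding genes alone and 1 to 112 with each library left out, the highest without MB1 alone replicate 1. The cause was not tested. Where a group was left with 1 library, that library was assumed to vary like the others.

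With the replicate number as a block, 0 genes were called in each of the 4 comparisons, and the adjusted p of Mgp with D341 was 0.120. The deviations of same-numbered libraries correlated across genes at 0.618, 0.593 and 0.614 in the Oli-neu comparisons and at -0.115 in MB1, but the labels do not say that the number marks a shared batch. Depth is unknown, and Smad6, Smad9 and Bmp4 were too low for the fit in both lines.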

Other observations

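The machinery that activates Gla proteins such as MGP was expressed in both lines. Vkorc1, which recycles vitamin K, was at 129 and 153 TPM in Oli-neu alone, 92.9 and 141 TPM with MB1, and 85.7 and 133 TPM with D341, so its groups overlapped. Ggcx, the gamma-carboxylase, was at 31.7 ± 5.73 TPM (SD, n = 2) in Oli-neu alone and 30.2 ± 2.40 TPM with D341. In MB1 alone, Ggcx was at 16.2 ± 2.02 TPM and Vkorc1 at 52.8 ± 27.3 TPM. Of the 7 genes of this list, 0 passed in limma in any comparison. Pros1, another Gla protein gene, was at 29.5 and 32.1 TPM in MB1 alone and at 44.8 and 38.7 TPM with Oli-neu.

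Of 14 genes of the TGF-beta branch, 11 were tested in each line and 0 passed in limma. Tgfb1 was at 9.18 ± 1.09 TPM (SD, n = 2) in Oli-neu alone and 0.701 ± 0.282 TPM in MB1 alone. Ccn1, a matricellular target of this branch, was at 8.28 and 8.16 TPM in Oli-neu alone, 8.91 and 8.77 TPM with MB1, and 10.2 and 10.03 TPM with D341, without overlap, with a log2 fold change with D341 of 0.27 ± 0.09 (adjusted p = 0.345 in limma).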
